A study of Homo sapiens with 6 samples.

Results

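The HOX genes of human clusters A to D were examined in MDA-MB-231 cells after depletion of the histone demethylase LSD1. Members were the genes whose platform annotation symbol is HOXA, HOXB, HOXC or HOXD followed by a number, measured by a probe set that carries exactly 1 gene symbol. This gave 28 genes with 44 probe sets, of 19775 genes with such a probe set and 54675 probe sets on the array. They were HOXA2 alone from cluster A, 10 genes from cluster B, 9 from cluster C and 8 from cluster D. The other 11 of the 39 human HOX genes, HOXD3 and the rest of cluster A, were not analysed here.

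MDA-MB-231 is a human breast cancer cell line that lacks estrogen receptor expression. One group of 3 arrays held RNA of cells transfected with LSD1 siRNA, and the other group of 3 arrays held RNA of cells transfected with control siRNA. Both groups received 2 rounds of transfection, and total RNA was purified after 6 days. The labels call the 3 samples of each group biological replicates and do not give the siRNA sequences. The authors' values are linear signal intensities with 1 common trimmed mean of 500.1 on every array. Precision is limited by having 3 arrays a group. In bulk RNA, fewer cells expressing a gene and less RNA per cell cannot be told apart. All results concern 1 cell line.

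HOX genes encode homeodomain transcription factors that set position along the body axis of the embryo. They lie in 4 clusters, in which low-numbered genes at the 3' end are expressed earlier and further forward than high-numbered ones at the 5' end. Polycomb proteins keep silent HOX genes repressed, MLL-type methyltransferases keep active ones marked at lysine 4 of histone H3, and retinoic acid is a known inducer of the 3' genes. LSD1, encoded by KDM1A, removes methyl groups from the same lysine, so the comparison asks which HOX transcripts differ when it is depleted.

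The depletion was seen on every array. KDM1A had signals of 291, 184 and 228 on the LSD1 siRNA arrays, against 2540, 2493 and 2295 on the control siRNA arrays. The means were 234 ± 53.6 with LSD1 siRNA and 2443 ± 130 with control siRNA (SD, n = 3 each). Permuting the group labels exactly (two-sided) returned p = 0.1, which is the lowest value this design can reach. Of 10 markers listed as present in this cell line, 9 were above background on all 6 arrays, SPARC being the exception, and so were 4 of 8 listed as absent, CDH1, EPCAM, ERBB2 and GATA3. Of 7 leukocyte markers with a probe set, LAPTM5 and CD79A were above background on all 6 arrays and PTPRC on none. Their summed signal was 7745 to 7795 with LSD1 siRNA, against 3355 to 3744 with control siRNA, and without LAPTM5 it was 304 to 443 with LSD1 siRNA, against 317 to 364 with control siRNA. Of 9 fibroblast and endothelial markers, 3 were above background on all LSD1 siRNA arrays, against 2 on all control siRNA arrays, with summed signals of 809 to 981 with LSD1 siRNA and 800.2 to 907 with control siRNA. The ratio of 3' to 5' ACTB probe sets, a sign of RNA quality, was 1.74 on control replicate 1 and 1.33 to 1.43 on the other 5 arrays. The part of these values in the HOX results was not tested.

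Promoter sequences are shown first for genes on which the results turn: HOXD1, the noncoding RNA HAGLR whose start lies beside it, and HOXD4. The window given for HOXC4, whose change did not pass the threshold given below, is shown as well. Each runs 5' to 3' on the gene's strand, from 250 bases before to 50 bases after the transcript start, and comes from RefSeq on GRCh38.p14. Of the 28 HOX genes, 11 have such a window in the table used, and HOXC6 and HOXB3 do not. In HOXD1 and HAGLR the capitals mark the bases that the windows share on opposite strands, and in HOXD4 and HOXC4 they mark CCAAT on either strand.
HOXD1, chr2:176188418-176188717, plus strand: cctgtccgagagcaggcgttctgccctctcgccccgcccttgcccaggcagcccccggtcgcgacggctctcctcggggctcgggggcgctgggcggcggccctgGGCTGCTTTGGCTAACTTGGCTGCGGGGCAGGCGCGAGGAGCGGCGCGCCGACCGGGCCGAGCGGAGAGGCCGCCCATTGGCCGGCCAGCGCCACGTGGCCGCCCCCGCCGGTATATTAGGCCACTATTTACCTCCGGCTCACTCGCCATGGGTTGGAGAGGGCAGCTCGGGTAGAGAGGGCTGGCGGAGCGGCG
HAGLR, chr2:176188523-176188822, minus strand: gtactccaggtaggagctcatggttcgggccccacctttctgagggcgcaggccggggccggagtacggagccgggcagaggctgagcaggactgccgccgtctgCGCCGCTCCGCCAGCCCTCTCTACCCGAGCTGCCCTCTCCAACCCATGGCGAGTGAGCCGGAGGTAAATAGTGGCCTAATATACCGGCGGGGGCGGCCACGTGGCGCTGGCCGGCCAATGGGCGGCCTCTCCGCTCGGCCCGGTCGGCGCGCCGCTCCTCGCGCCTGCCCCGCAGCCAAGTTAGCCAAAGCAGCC
HOXD4, chr2:176151300-176151599, plus strand: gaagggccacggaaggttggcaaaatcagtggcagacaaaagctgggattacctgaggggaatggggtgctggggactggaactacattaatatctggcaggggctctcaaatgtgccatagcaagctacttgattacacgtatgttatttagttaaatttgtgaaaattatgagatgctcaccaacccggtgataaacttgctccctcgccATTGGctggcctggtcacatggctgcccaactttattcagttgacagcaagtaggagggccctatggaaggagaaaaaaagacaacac
HOXC4, chr12:54016638-54016937, plus strand: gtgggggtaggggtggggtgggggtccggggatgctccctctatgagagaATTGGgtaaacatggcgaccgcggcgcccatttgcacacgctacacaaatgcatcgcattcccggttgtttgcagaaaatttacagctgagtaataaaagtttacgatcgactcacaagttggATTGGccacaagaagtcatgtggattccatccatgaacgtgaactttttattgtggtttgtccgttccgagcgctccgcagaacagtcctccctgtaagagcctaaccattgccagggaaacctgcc
The HAGLR window, 1 of 4 in the table, was picked because it overlaps the HOXD1 window the most. The HOXD1 and HAGLR windows share 195 bases, so this sharing, and that of motifs within it, follows in part from the pick. This HAGLR start lies 96 bases upstream of the HOXD1 start and is read in the opposite direction. Another HAGLR start in the table lies downstream of the HOXD1 start. The HOXC5 window is the same sequence as that of HOXC4. The bases G and C make up 74.3% of the HOXD1 window, 71% of the HAGLR window, 47.3% of the HOXD4 window and 51.7% of the HOXC4 window, against a median of 58.7% over all 34796 distinct windows of 300 bases. CCAAT on either strand was found in all 4 windows and in 34.6% of all windows, and the GC box GGGCGG in HOXD1 and HAGLR and in 44.9% of all. The CCAAT of HOXD1 and that of HAGLR are the same site, within the shared bases, and the GC boxes of HAGLR lie there as well. CACGTG, a motif bound by MYC family proteins, was found in HOXD1 and HAGLR, within the shared bases, and in 7.2% of all windows. TATAAA (11.6% of all windows), CACCTG, which SNAI2 can bind (20.6%), the nuclear receptor half-site AGGTCA (13.8%) and the PBX and HOX motif TGATNNAT (7.42%) were in none of the 4, both strands searched.

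Most HOX genes were not above a background level set from genes taken to be silent. The values carry no detection calls, so the 107 probe sets of 82 olfactory receptor genes, which epithelial cells mostly do not transcribe, served as a level for silent genes. A gene was called above background in a group when 1 of its probe sets was above the 95th percentile of these sets on all 3 arrays of the group, a signal of 53.2 to 71.1 depending on the array. By this rule 6 of 28 HOX genes (21.4%) were above background with LSD1 siRNA, against 56.5% of all genes, and 7 of 28 (25%) with control siRNA, against 55.9% of all genes. Those above in both groups were HOXB9, HOXC5, HOXC6, HOXD1 and HOXD4. HOXB3 was above on all 3 arrays with LSD1 siRNA and on 2 of 3 with control siRNA. HOXB7 and HOXC11 were above on 2 of 3 arrays with LSD1 siRNA and on all 3 with control siRNA. HOXA2 was on no array above background, with signals of 6.77, 14.2 and 27.8 with LSD1 siRNA, against 4.13, 27.4 and 24.9 with control siRNA.

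**Figure D1:**
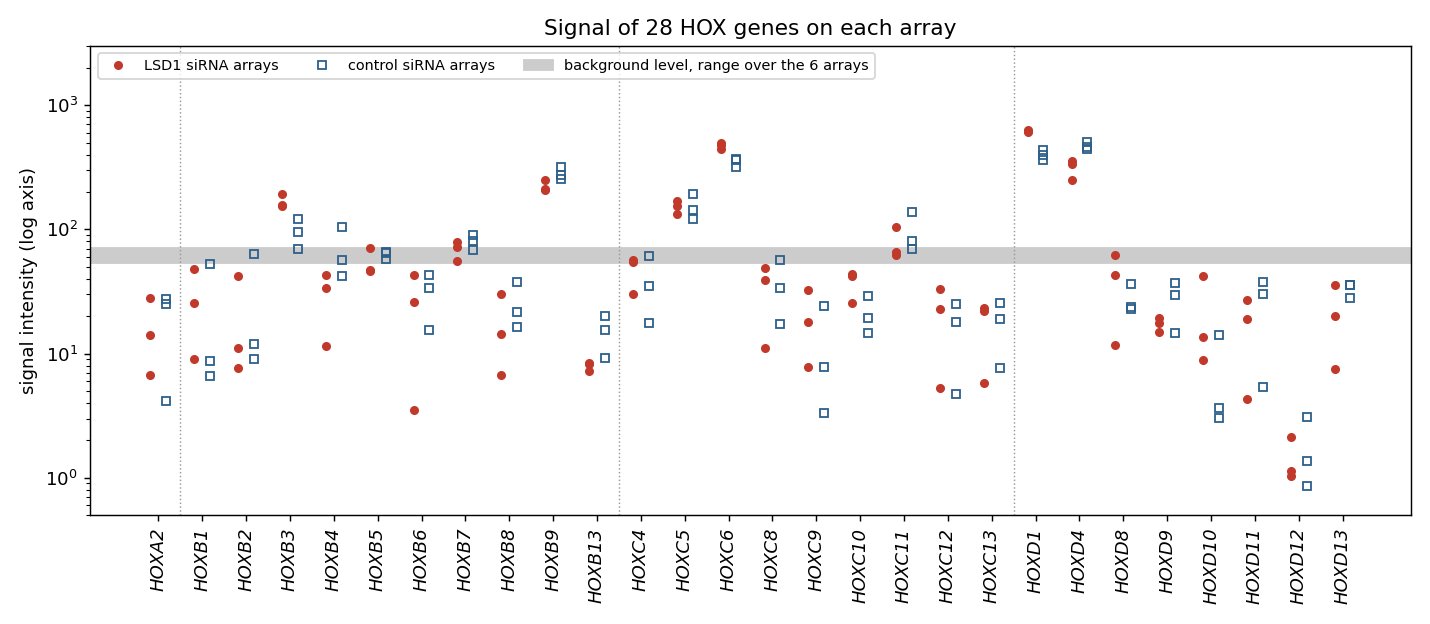
Signal intensity (log axis) of the 28 HOX genes on each array, with LSD1 siRNA arrays as filled circles to the left of control siRNA arrays as open squares. Genes run by cluster and number, separated by dotted lines, and the grey band spans the background level of the 6 arrays, 53.2 to 71.1. Most genes lie in or below the band, and HOXB9, HOXC5, HOXC6, HOXD1 and HOXD4 lie above it on every array.

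Position along the clusters is given as a description, with no test. In cluster D, HOXD1 and HOXD4 near the 3' end were above background and the 6 genes from HOXD8 to HOXD13 were not. In cluster B, HOXB3, HOXB7 and HOXB9 were above background in at least 1 group, and in cluster C, HOXC5, HOXC6 and HOXC11 were. HOXB13 and the posterior genes HOXC12, HOXC13, HOXD12 and HOXD13 were on no array above background. HOXB9 lies between HOXB8 and HOXB13, neither of which was above background in either group, while HOXC6 lies between HOXC5, which was above it in both groups, and HOXC8, which was not.

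Of the 28 genes, 13 passed the filter on low values (a mean signal over the 6 arrays above 30.6) and were tested with limma. Each was tested by its brightest probe set without the x suffix, which marks possible cross-hybridisation. For HOXB5 the set with that suffix was the brighter. A log2 change is the mean of log2(signal + 15) with LSD1 siRNA minus that with control siRNA, and it understates the change of dim genes. HOXD1, HOXC6 and HOXB3 rose and HOXD4 fell with LSD1 siRNA at an adjusted p of 0.05, Benjamini-Hochberg over 13841 genes. That is 4 of 13, or 30.8%, against 41.1% of all genes tested, with 19.8% of all genes higher and 21.2% lower. Group ranges were separate for 5 of the 13 (38.5%), against 50.4% of all genes. The median change of the 13 was -0.11, against -0.02 over all genes tested. Both shares lie below those over all genes, so neither is read as a result about HOX genes as a group.

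HOXD1, the 3'-most gene of its cluster, rose. Its signals were 632, 622 and 612 with LSD1 siRNA, against 360, 433 and 399 with control siRNA. The groups did not overlap, and every LSD1 siRNA array was well above the highest control. The means were 622 ± 10.3 with LSD1 siRNA and 398 ± 36.5 with control siRNA (SD, n = 3 each), a log2 change of 0.63 (SE 0.10, limma adjusted p = 0.000268). A second HOXD1 probe set was on no array above background, at 10.9 ± 9.0 with LSD1 siRNA and 11.5 ± 13.9 with control siRNA (SD, n = 3 each), and the mean of both sets did not pass (0.33, limma adjusted p = 0.222).

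HAGLR, a long noncoding RNA of cluster D read from the strand opposite to HOXD1, rose as well. Its brightest set had 998, 894 and 1046 with LSD1 siRNA, against 651, 690 and 697 with control siRNA. The groups did not overlap. The log2 change was 0.52 (SE 0.09, limma adjusted p = 0.000402). With every probe set tested, another HAGLR set gave 0.64 (limma adjusted p = 0.0107), and the third gave 0.29 (limma adjusted p = 0.421). Where the HAGLR and HOXD1 probe sets lie within the transcripts was not analysed here.

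HOXD4, which HOXD3 separates from HOXD1 in the cluster, fell. It had 352, 249 and 339 with LSD1 siRNA, against 441, 458 and 508 with control siRNA. The groups did not overlap, and the second LSD1 siRNA array was the lowest of the 6. The means were 313 ± 56.3 with LSD1 siRNA and 469 ± 34.7 with control siRNA (SD, n = 3 each), and the log2 change was -0.57 (SE 0.14, limma adjusted p = 0.00493). A second HOXD4 set was at 103, 107 and 136 with LSD1 siRNA, against 169, 179 and 129 with control siRNA, so its groups overlapped. It gave -0.41 and did not pass (limma adjusted p = 0.109 over all probe sets), and without eBayes moderation the brighter set had an adjusted p of 0.0691 in the linear model. By their brightest sets, HOXD1 and HOXD4 thus moved in opposite directions within 1 cluster. A set that carries the symbols of HOXD3, HOXD4 and LOC401021, left out of the members, gave a log2 change of 0.11.

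HOXC6, a gene of the middle of cluster C, rose by a smaller amount. Its signals were 444, 477 and 495 with LSD1 siRNA, against 359, 372 and 318 with control siRNA. The groups did not overlap. The means were 472 ± 26.2 with LSD1 siRNA and 350 ± 28.2 with control siRNA (SD, n = 3 each), a log2 change of 0.42 (SE 0.10, limma adjusted p = 0.00687). Some transcripts of HOXC4, HOXC5 and HOXC6 are known to share an upstream start, and each of these genes has 1 probe set here.

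HOXC5 had 154, 170 and 132 with LSD1 siRNA, against 143, 122 and 194 with control siRNA. Its groups overlapped, with a log2 change of 0.01 (SE 0.19, limma adjusted p = 0.978). HOXC4 was near background, at 47.2 ± 14.9 with LSD1 siRNA and 37.7 ± 21.8 with control siRNA (SD, n = 3 each), with a change of 0.29 that did not pass (limma adjusted p = 0.584). The difference between HOXC6 and its neighbours was not tested.

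HOXB3, an anterior gene of cluster B that acts in the hindbrain, rose. It had 157, 155 and 194 with LSD1 siRNA, against 95.1, 69.1 and 122 with control siRNA. The groups did not overlap, and the second control array lay below the background level of that array. The log2 change was 0.76 (SE 0.21, limma adjusted p = 0.0126). The call was lost without LSD1 siRNA replicate 3 (0.66, limma adjusted p = 0.0606), with the mean of both HOXB3 sets (0.51, limma adjusted p = 0.215) and without eBayes moderation (adjusted p = 0.0781). The other HOXB3 set was on no array above background.

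**Figure D2:**
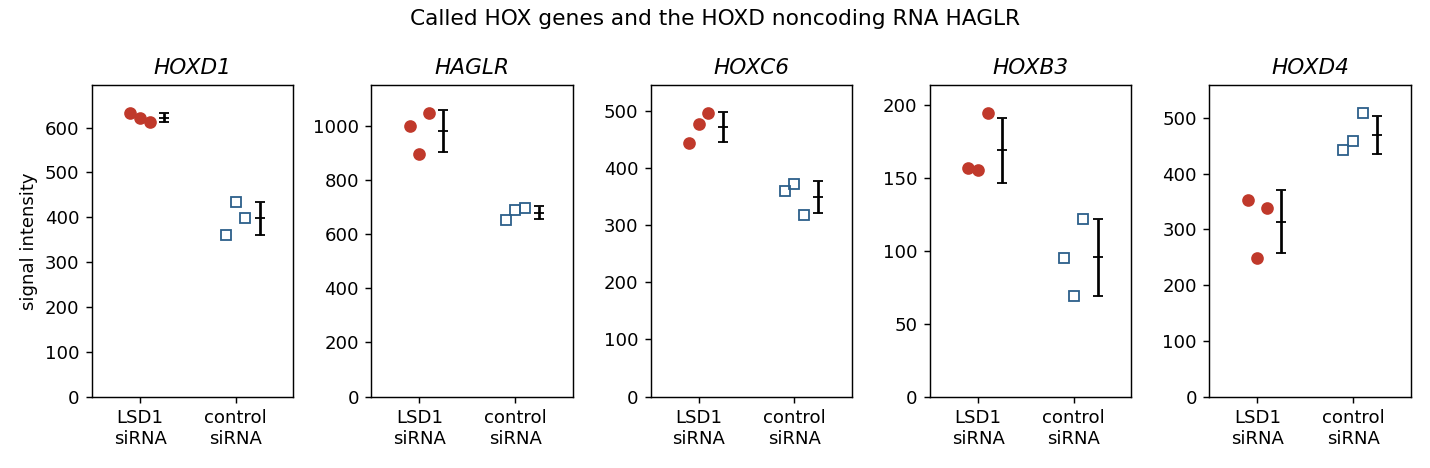
Signal intensity of HOXD1, HAGLR, HOXC6, HOXB3 and HOXD4 on each array, LSD1 siRNA at left and control siRNA at right in each panel, with the mean and SD as a bar (n = 3). The vertical axes start at 0 and differ between panels. The LSD1 siRNA arrays lie above all control arrays for the first 4 genes and below them for HOXD4.

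HOXB9, a posterior gene of cluster B, had non-overlapping groups but did not pass. Its signals were 211, 206 and 252 with LSD1 siRNA, against 320, 274 and 255 with control siRNA. The log2 change was -0.32 (SE 0.14, limma adjusted p = 0.0813), and a second HOXB9 set gave -0.13 with overlapping groups. HOXB4, which marks blood stem cells, had the most negative value among the 13, at -0.90 (SE 0.39, limma adjusted p = 0.0885). It had 43.2, 11.6 and 33.7 with LSD1 siRNA, against 42.3, 104 and 56.3 with control siRNA, so the difference rests on dim and scattered signals. Its mean with LSD1 siRNA, 29.5, was below the filter on low values, which HOXB4 passed only through the control siRNA arrays.

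The remaining tested genes did not pass. HOXB7 was at 69.3 ± 12.1 with LSD1 siRNA and 79.3 ± 10.9 with control siRNA (SD, n = 3 each), with a change of -0.17 (limma adjusted p = 0.616), and its 3 probe sets all had negative values. HOXB5 had probe sets of opposite sign, 0.43 for a set marked for possible cross-hybridisation and -0.17 for the set used, and neither passed over all probe sets (limma adjusted p = 0.230 and 0.654). HOXC11 gave -0.24, HOXC8 -0.11 and HOXD8 0.22, with standard errors of 0.28, 0.44 and 0.43, and none passed. With every probe set of a gene tested, 19 of 44 HOX sets passed the filter on low values and 4 were called, 21.1% against 34.5% of all probe sets. These were the same 4 sets as in the gene test.

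**Figure D3:**
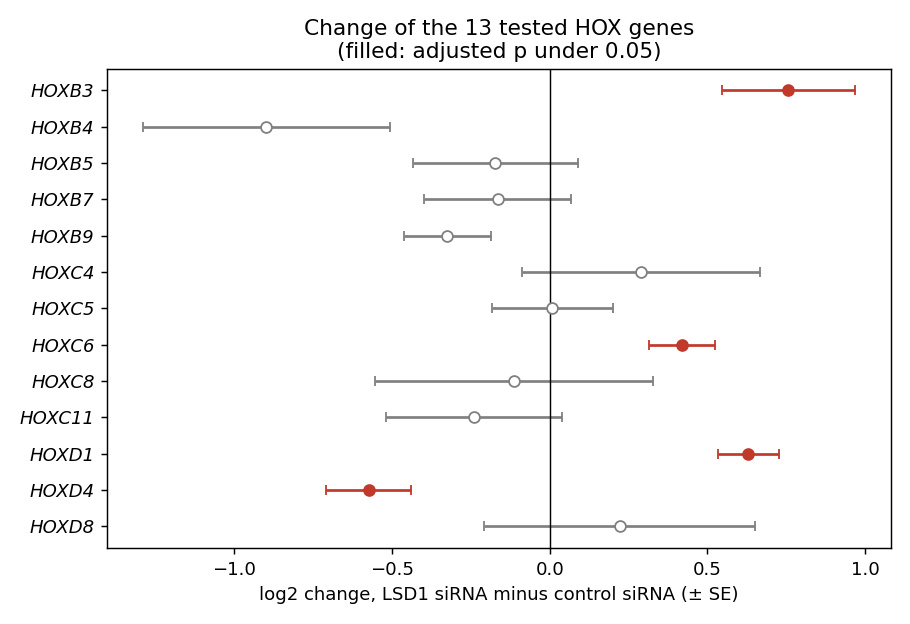
Log2 change (LSD1 siRNA minus control siRNA, horizontal axis) of the 13 tested HOX genes with its standard error, by cluster and number from top to bottom. Filled points passed an adjusted p of 0.05: HOXB3, HOXC6 and HOXD1 to the right of 0 and HOXD4 to the left.

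The 15 genes not tested had dim signals, between 0.854 and 63.2 on single arrays for the brightest set of each. HOXB1 had 25.4, 48.2 and 9.11 with LSD1 siRNA, against 8.70, 52.6 and 6.65 with control siRNA, with overlapping groups. HOXC10, an abdominal gene, had 43.3, 25.4 and 42.2 with LSD1 siRNA, against 19.2, 14.5 and 29.0 with control siRNA, with overlapping groups. HOXB13, a prostate gene, had groups that did not overlap, at 7.98 ± 0.69 with LSD1 siRNA and 14.8 ± 5.41 with control siRNA (SD, n = 3 each), far below background in both. How often groups do not overlap among all untested genes was not computed. At these signals a difference was not measurable.

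Most other noncoding RNAs of the clusters with a probe set were not above background. Of 26 listed, 12 have a probe set, 4 passed the filter on low values and 1, HAGLR, was called, 25% against 41.1% of all genes tested. The brightest set of HOTTIP, a noncoding RNA at the 5' end of cluster A, was above background on all 6 arrays. It was at 123 ± 18.1 with LSD1 siRNA and 138 ± 27.3 with control siRNA (SD, n = 3 each). Its change of -0.14 did not pass (limma adjusted p = 0.60). The other HOTTIP sets were on no array above background. HOTAIR, a noncoding RNA of cluster C, was on no array above background, at 7.74 ± 5.36 with LSD1 siRNA and 11.3 ± 9.65 with control siRNA (SD, n = 3 each). HOTAIRM1 has no probe set named here.

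HOX proteins bind DNA together with PBX, MEIS and PKNOX homeodomain proteins, and 2 of these fell. Of 9 listed, 7 were tested, none rose and 2 fell. That is 28.6% called against 41.1% of all genes tested (19.8% higher and 21.2% lower), with a median of -0.23 against -0.02. PBX3 was at 588 ± 25.2 with LSD1 siRNA and 1014 ± 74.2 with control siRNA (SD, n = 3 each), a change of -0.77 (limma adjusted p = 2.12e-05). MEIS2 was at 712 ± 59.0 with LSD1 siRNA and 989 ± 58.9 with control siRNA (SD, n = 3 each), a change of -0.47 (limma adjusted p = 0.000983). PBX2 (-0.23), MEIS1 (0.06) and PKNOX1 (-0.32) did not pass. GMNN, which encodes geminin, a replication licensing inhibitor that also binds HOX proteins, fell by 0.57 on the log2 scale (limma adjusted p = 8.94e-05).

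Genes of both the repressors and the activators of HOX transcription fell. Of 21 tested Polycomb genes none rose and 11 fell, 52.4% called, with a median of -0.28. EZH2, the methyltransferase of lysine 27 of histone H3, changed by -0.98, CBX2, a reader of that mark, by -1.05, PHF19 by -0.84 and RBBP7 by -0.46. Of 18 tested genes of the MLL complexes and of elongation factors that act on HOX genes, 2 rose and 10 fell, 66.7% called, with a median of -0.44. MLLT1 changed by -0.83, WDR5 by -0.75, PSIP1 by -0.71, DOT1L, the methyltransferase of lysine 79 of histone H3, by -0.99 and KMT2A itself by -0.45, while AFF1 (0.47) and AFF4 (0.41) rose and MEN1 (-0.03) did not pass. Of 8 genes of CTCF and cohesin, which set the boundaries within the clusters, none rose and 6 fell, 75.0% called, with a median of -0.30, CTCF at -0.54, STAG1 at -0.59, WAPL at -0.38 and STAG2 at -0.25 among them. All these sets stand against 41.1% called (19.8% higher and 21.2% lower) and a median of -0.02 over all genes tested. The tested genes of these lists were all above background on all 6 arrays, whereas the shares over all genes include dimmer ones.

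Genes of the retinoic acid pathway moved both ways. Of 11 tested, 4 rose and 2 fell, 54.5% called against 41.1% of all genes tested (19.8% higher and 21.2% lower), with a median of -0.09 against -0.02. Of these 11, 10 were above background on all 6 arrays, whereas the shares over all genes include dimmer ones. RARB, a retinoic acid receptor that is itself induced by retinoic acid, was at 272 ± 65.1 with LSD1 siRNA and 141 ± 11.4 with control siRNA (SD, n = 3 each), a rise of 0.86 (limma adjusted p = 0.00168). CRABP2, a retinoic acid carrier, rose by 0.57 and RDH10, a retinol dehydrogenase, by 0.39, while ALDH1A3, which makes retinoic acid, changed by -0.45. CYP26A1 and DHRS3, other genes of the pathway, were on no array above background.

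Genes that flank the clusters moved both ways, with the highest value beside cluster A. Of 15 tested, 6 rose and 2 fell, 53.3% called against 41.1% of all genes tested (19.8% higher and 21.2% lower), with a median of 0.24 against -0.02. Of these 15, 14 were above background on all 6 arrays, whereas the shares over all genes include dimmer ones. SKAP2, next to cluster A, was at 2587 ± 57.4 with LSD1 siRNA and 1176 ± 88.2 with control siRNA (SD, n = 3 each), a rise of 1.13 (limma adjusted p = 3.39e-07). HIBADH, on the other side of cluster A, rose by 0.68. CBX5, which encodes the heterochromatin protein HP1 alpha and lies beside cluster C, changed by -0.83, and CBX1, near cluster B, by -0.39. Around cluster D, MTX2 (-0.07) did not pass, and LNPK rose by 0.38 with overlapping groups (limma adjusted p = 0.0301).

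**Figure D4:**
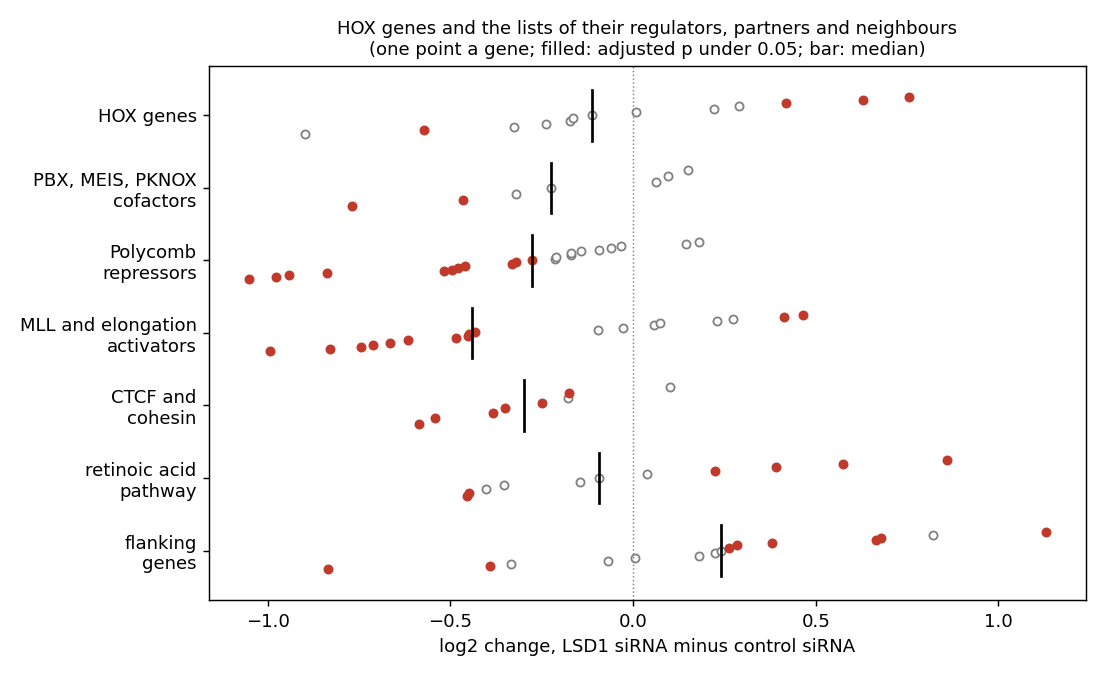
Log2 change (LSD1 siRNA minus control siRNA) of the tested HOX genes and of the genes in 6 lists, 1 point a gene, filled where the adjusted p was under 0.05, with the median of each list as a bar. The HOX genes spread on both sides of 0 with a median of -0.11, and the Polycomb, MLL and CTCF lists lie mostly to the left.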

How the data were processed

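RNA of 3 LSD1 siRNA and 3 control siRNA cultures was measured on Affymetrix arrays, from 2.5 ug of total RNA each. The authors deposited linear signal intensity values, made with GCOS, Affymetrix Expression Console 1.1 and MAS5 per the submitters' processing notes. Such scaling cannot show a change in the overall amount of RNA, and low MAS5 signals scatter widely. Genes were named from the platform annotation (41091 probe sets with 1 symbol, 1801 with several, 11777 not listed); 41037 of the first matched RefSeq by gene identifier.

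Each gene was represented by its brightest probe set, sets with the x suffix only where a gene had no other. Values were log2(signal + 15), 15 being the 25th percentile, and 13841 genes with a mean signal above 30.6, the 40th percentile, were tested with limma 3.58.1 in R 4.3.3 (lmFit, eBayes with an intensity trend, two-sided, Benjamini-Hochberg). No covariate was used. The p-values weigh the difference between groups against the spread between these samples within a group, moderated over all genes tested. Promoter windows were searched in Python 3.11.15 with pandas 2.3.3, and plots were drawn with matplotlib 3.10.9. On simulated data of 13841 genes with 50 changed at each size, the test recovered 24% of 1.25-fold, 52% of 1.5-fold, 78% of 2-fold and 90% of 3-fold changes, with 3 false calls. The simulation changed a far smaller share of genes than the 41.1% called in the data. Its Benjamini-Hochberg cutoff was therefore stricter, and these rates need not hold for the data. Same-numbered arrays did not deviate together (correlations of 0.02, -0.004 and 0.03), so the numbers were not taken as pairs. A planned comparison of homeodomain sequences was not made.

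Values on every array were given for called HOX genes and the 2 brightest of each cluster. From each list, up to 4 called members with the smallest p were named, with a few fixed ones (KDM1A, PBX2, PBX3, MEIS1, MEIS2, PKNOX1, HOTAIR, HOTTIP, HOTAIRM1, KMT2A, MEN1, EZH2, CBX2). HOXB4, HOXB1, HOXC10, HOXB13 and the other untested or uncalled HOX genes were named after their values were seen. So were AFF1, AFF4, CYP26A1, DHRS3, MTX2, LNPK, MIR10A and the marker genes. Members and lists were chosen with earlier results of these data known.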

Additional observations from a re-analysis of the deposited data

Results flagged for a closer look

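A probe set outside the tested values gave a signal. It carries the symbols of HOXD3, HOXD4 and LOC401021, so it was left out of the members, and it was above background on all 6 arrays. Its signals were 190, 199 and 190 with LSD1 siRNA, against 182, 189 and 163 with control siRNA, a log2 change of 0.11 with groups that did not overlap by a narrow margin. HOXD4 by its own brightest set was at -0.57. The 2 other sets with these symbols were on no array above background.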

How the results depend on the processing

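The counts of 3 higher and 1 lower HOX genes were the same with constants of 1 and 60, no filter, a filter at the 60th percentile, quantile normalization, median centring, no intensity trend, a replicate block (3 and 1) and every probe set tested. The unmoderated linear model called 2 higher and 0 lower HOX genes, and the mean of all probe sets called 1 higher and 1 lower. Leaving out each array gave 2 to 3 higher and 1 lower in each case, the 2 being without LSD1 siRNA replicate 3, where HOXB3 was lost. Over all genes the replicate block gave 2743 higher and 2951 lower, against 2742 and 2940 without it, and leaving out each array gave 2330 to 2737 higher and 2520 to 3001 lower. The numbers of HOX genes above background were 9 with LSD1 siRNA and 9 with control siRNA at the 90th percentile of olfactory receptor sets, 6 and 5 at the 99th percentile, and 9 and 10 at the 40th percentile of all probe sets. The cause of the lost calls was not tested. The second HOXD1 and HOXB3 sets, which enter the mean of all sets, lie below background. HOXC6 kept its call under every alternative run for it, at 0.36 to 0.46. With 3 arrays a group, changes of HOX genes near the background signal could not be measured.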

Other observations

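The ParaHox, MEOX, MNX, GBX and EN homeobox genes mostly did not pass the filter on low values. Of 13 listed, 10 were below it, 3 were tested and 2 fell, 66.7% of those tested against 41.1% of all genes called and 21.2% lower. MNX1, a motor neuron homeobox gene, was at 334 ± 56.7 with LSD1 siRNA and 652 ± 59.2 with control siRNA (SD, n = 3 each), a log2 change of -0.95 (limma adjusted p = 0.000103). EN2, an engrailed gene, was above background on no array with LSD1 siRNA and on all 3 with control siRNA, at 41.8 ± 7.50 against 95.5 ± 10.3 (SD, n = 3 each), a change of -0.97 (limma adjusted p = 0.00725). Of 28 other ANTP-class homeobox genes with a probe set, 16 were below the filter, 12 were tested and 1 fell, 8.33% of those tested against 41.1% of all genes called and 21.2% lower. It was NKX3-2, at 138 ± 7.08 with LSD1 siRNA and 241 ± 34.5 with control siRNA (SD, n = 3 each), a change of -0.73 (limma adjusted p = 0.00215). A probe set annotated to MIR10A, a microRNA gene of cluster B, was on no array above background, and it does not measure the mature microRNA.

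Among markers of other cell types, LUM, a matrix proteoglycan gene of fibroblasts, had 95.2 ± 7.83 with LSD1 siRNA and 1.90 ± 2.32 with control siRNA (SD, n = 3 each). It was the 1 called of 7 tested fibroblast and endothelial markers, 14.3% against 41.1% of all genes tested. LUM passed the filter on low values only through the LSD1 siRNA arrays, so no support is drawn from its call. LAPTM5 was the 1 called of 6 tested leukocyte markers, 16.7% against 41.1% of all genes tested, at 7404 ± 58.6 with LSD1 siRNA and 3212 ± 218 with control siRNA (SD, n = 3 each). Their part in the HOX results was not tested.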
